A study of Macaca fascicularis with 48 samples.

Results

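Frontal cortex RNA was compared between the paired samples of 24 cynomolgus monkeys (Macaca fascicularis). Every animal gave 2 punches, small cores of tissue, and each punch gave 1 RNA-seq library. The libraries with title numbers 25 to 48 are called set 2 here and those with title numbers 1 to 24 are called set 1, and the animal labels pair number n of set 1 with number n plus 24 of set 2. All 48 libraries of the series entered, 24 of each set, and all 24 animals had 1 library in both. Per the series text, the second punch was taken to measure how much expression varies between samples of 1 brain.

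Antibody had been given to each animal once, intravenously, at 200 mg/kg. The hPara.09 animals were dosed with an antibody that acts on TREM2, a receptor of microglia, the resident immune cells of brain. The agent label of these animals reads Para09.v2. The other animals received anti-gD, the isotype control. Brain was harvested on day 28 or day 4, which gave 6 animals in each of 4 groups: hPara.09 day 28, anti-gD day 28, hPara.09 day 4 and anti-gD day 4. The labels used here give no ages and describe the tissue as cerebral cortex.

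Neocortex is a layered sheet of excitatory and inhibitory neurons, astrocytes, microglia and blood vessels, and it lies on white matter rich in oligodendrocytes and myelin. A punch can cross these compartments, so its RNA can depend on how much grey and white matter and which layers it caught, which was not tested here. In bulk RNA, fewer cells of a type and less RNA per cell cannot be told apart. The labels do not say which position, handling order or sequencing run a set stands for, so punch position, library preparation and sequencing cannot be told apart between the sets.

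Depth differed between the sets. Total counts ranged from 12137146 to 29740115 in set 2, with a median of 19442901, and from 16612369 to 32118950 in set 1, with a median of 22149963. Set 2 held fewer counts in 16 of 24 animals (mean difference -2240948 counts, adjusted p = 0.0221, two-sided sign-flip permutation test over 24 animals, adjusted over 4 library measures). It also had fewer detected genes in 19 of 24 animals (mean difference -259.8 genes, adjusted p = 0.00484, same test). With each pair thinned to equal totals the difference was -127.2 genes (permutation p = 0.00337, unadjusted). The hPara.09 day 28 group did not share these directions in its means, with differences of 182961 counts and 16 genes before thinning. By animal, set 2 held more counts in 4 of these 6 animals but fewer detected genes in 4 of 6. In anti-gD day 28, hPara.09 day 4 and anti-gD day 4 the means ran from -3243077 to -2854022 counts and from -459.3 to -270.7 genes. No group passed alone after adjustment, but a group of 6 could hardly pass. Its smallest two-sided sign-flip p is 0.03125, and the adjustment ran over 16 tests. In anti-gD day 28, set 2 had fewer detected genes in 6 of 6 animals (exact sign-flip p = 0.0312, adjusted p = 0.25). The exonic share, which is the sum of the gene counts as a percentage of the read number behind the deposited RPKM values, was on average 0.487 percentage points higher in set 2, and this difference did not pass (adjusted p = 0.135). The share of counts in the 13 most abundant genes did not pass either (mean difference 0.738 points, adjusted p = 0.479), and its mean difference was 0.0806 points without animal 5.

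The first question was which transcripts differed between the punches of an animal in the same way across animals. Most tested genes differed, by small amounts. Of 15481 genes tested, 4796 were higher in set 2 (31.0%) and 4467 were lower (28.9%), so 9263 genes were called (59.8%; edgeR's quasi-likelihood test with the animal as a block, Benjamini-Hochberg adjusted p under 0.05). The split of the calls depended on the scaling: 51.8% of them were higher with TMM factors, 43.6% with upper-quartile factors and 57.7% with a width trend as an offset. The median size of a called change was 0.29 on the log2 scale. Of the called genes, 1098 had changed by more than 1.5-fold and 107 by more than 2-fold. A test against a minimum fold of 1.2 called 2435 genes.

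The direction was shared by every animal for a smaller group of genes. The pair ratio was above 0 in all 24 animals for 441 genes (2.85%) and below 0 in all 24 for 113 genes (0.73%), and all of these 554 genes were among those called. Called genes that were higher in set 2 had a median width of 2272.5 bases and a median level of 24.8 CPM (a count scaled to a common library total). Called genes that were lower had a median width of 3122 bases and a median level of 15.1 CPM, and genes not called had medians of 3153.5 bases and 14.5 CPM. The genes higher in set 2 were thus shorter and more abundant than the other tested genes, as medians over genes.

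The files give Ensembl gene IDs only and none was paired with a name, so genes are described by ID, width and level, and no function is attached to any of them. A few IDs, taken by a rule of size, illustrate the paired difference. ENSMFAG00000009769, with a width of 695 bases, had the largest rise among the 410 IDs that were called, higher in every animal and averaged 10 CPM or more. It ranged from 7.76 to 32.3 CPM with a median of 21.1 CPM in set 2, against 5.20 to 19.3 CPM with a median of 9.71 CPM in set 1. The sets overlapped, with 13 of the 24 set 2 libraries above the highest set 1 library. The smallest pair ratio was 0.22 on the log2 scale in animal 23 and the largest was 1.74 in animal 24 (fitted log2 fold change 0.88 with a standard error of 0.0806, adjusted p = 9.31e-10 in edgeR).

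ENSMFAG00000013176, with a width of 204 bases, separated the sets further. It ranged from 25.4 to 48.4 CPM with a median of 34.7 CPM in set 2, against 12.6 to 32.1 CPM with a median of 19.9 CPM in set 1, and 18 of the 24 set 2 libraries lay above every set 1 library (log2 fold change 0.85 with a standard error of 0.0681, adjusted p = 9.89e-11 in edgeR). Within the hPara.09 day 28, anti-gD day 28 and hPara.09 day 4 groups its sets did not overlap. In the hPara.09 day 28 group it was at 25.5 to 34.7 CPM in set 2, against 15.7 to 22.1 CPM in set 1. In the anti-gD day 4 group the sets overlapped, at 27.2 to 48.4 CPM in set 2 and 14.5 to 32.1 CPM in set 1.

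The largest falls among IDs lower in all 24 animals are given next, and IDs that fell further without sharing 1 direction in every animal were outside this rule. ENSMFAG00000030166, with a width of 684 bases, ranged from 6.01 to 24.7 CPM with a median of 14.9 CPM in set 2, against 15.3 to 59.5 CPM with a median of 30.8 CPM in set 1. Its pair ratio was below 0 in every animal, from -2.33 in animal 15 to -0.17 in animal 1 (log2 fold change -1.14 with a standard error of 0.116, adjusted p = 1.08e-08 in edgeR). ENSMFAG00000036447, with a width of 2223 bases, ranged from 6.45 to 16.5 CPM with a median of 9.90 CPM in set 2, against 10.7 to 38.4 CPM with a median of 21.1 CPM in set 1 (log2 fold change -0.89 with a standard error of 0.0967, adjusted p = 1.96e-08 in edgeR). In animal 1 its levels were nearly equal, with a pair ratio of -0.02, while animal 15 had a ratio of -1.94. Over 35 alternative settings, all 4 IDs kept their direction and had an adjusted p of at most 6.13e-06 (edgeR, DESeq2 or limma). The IDs were picked from these same data for a large change with 1 direction in all 24 animals. Leaving out an animal could hardly reverse them, so these values are a description and no independent support.

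**Figure D1:**
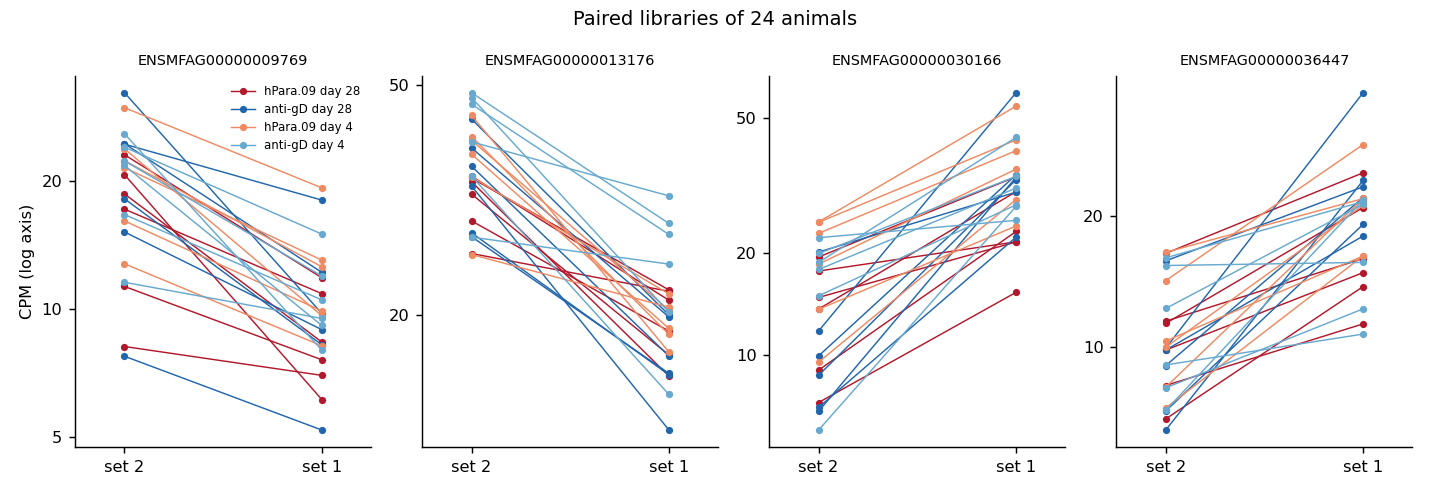
CPM on a log axis of 4 gene IDs in set 2 (left) and set 1 (right), with 1 line per animal (n = 24) coloured by group. All 24 lines fall towards set 1 for the first 2 IDs and climb towards set 1 for the other two, steeply in some animals and less so in others.

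The next question was whether the difference between punches had the same form in the 4 groups, which share no animals. In the hPara.09 day 28 group 2434 genes were called (15.7%; 1496 higher and 938 lower in set 2), and in the anti-gD day 28 group 6205 were called (40.1%; 3198 higher and 3007 lower). In the hPara.09 day 4 group 3288 were called (21.2%; 1742 higher and 1546 lower), and in the anti-gD day 4 group 2587 were called (16.7%; 1441 higher and 1146 lower). The share of higher genes among the calls was lower in every group with upper-quartile than with TMM factors. It was 51.6% with upper-quartile and 61.5% with TMM factors in hPara.09 day 28, and 43.4% against 51.5% in anti-gD day 28. It was 40.5% against 53.0% in hPara.09 day 4, and 46.7% against 55.7% in anti-gD day 4. The counts of 3 groups moved by more than 1.5 times when single animals were left out. Leaving out 1 animal moved the hPara.09 day 28 count to 1601 without animal 19, 1536 without animal 20, 1332 without animal 21 and 1131 without animal 22. The hPara.09 day 4 count became 1609 without animal 10, 1795 without animal 11 and 1908 without animal 12, and the anti-gD day 4 count became 1633 without animal 4 and 1543 without animal 6.

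Direction was shared across the groups. Among the genes called, 888 were called in all 4 groups, 682 of them higher and 206 lower in set 2, and 0 genes were called in opposite directions in any pair of groups. A gene called over 3 groups was then read in the fourth, whose animals had no part in the call. The sign was the same for 94.3% of 8240 genes read in the hPara.09 day 28 group and 96.9% of 7781 read in the anti-gD day 28 group. It was the same for 98.6% of 7766 genes in the hPara.09 day 4 group and for 89.6% of 8819 genes in the anti-gD day 4 group. Genes not called over the other groups had the same sign in 62.8% to 76.1% of cases. The size of the change was less alike. Genes called higher over 3 groups had a median log2 fold change in the fourth of 0.242 (hPara.09 day 28), 0.346 (anti-gD day 28), 0.276 (hPara.09 day 4) and 0.221 (anti-gD day 4). Over the 3 groups that made each call it was 0.297, 0.275, 0.296 and 0.288. For genes called lower the fourth groups had -0.253, -0.413, -0.331 and -0.237, against -0.358, -0.302, -0.354 and -0.354.

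The pattern of changes over genes was also related between groups, by a correlation that does not compare their scale. Across 15481 genes, Pearson's r was taken between the mean pair log2 ratios of 2 groups. It ran from 0.646 (hPara.09 day 28 with anti-gD day 4) to 0.811 (hPara.09 day 28 with hPara.09 day 4). Restricted to 9558 genes averaging 10 CPM or more, the range was 0.696 to 0.888. Genes are not independent replicates, so these values are a description. Single animals were compared in the same way, as a description with no test, since the combinations share animals. The median r of the pair log ratios of 2 animals was 0.352 within a group (60 combinations, from -0.103 to 0.651, 2 of them below 0) and 0.334 between groups (216 combinations, from -0.268 to 0.721, 13 below 0).

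**Figure D2:**
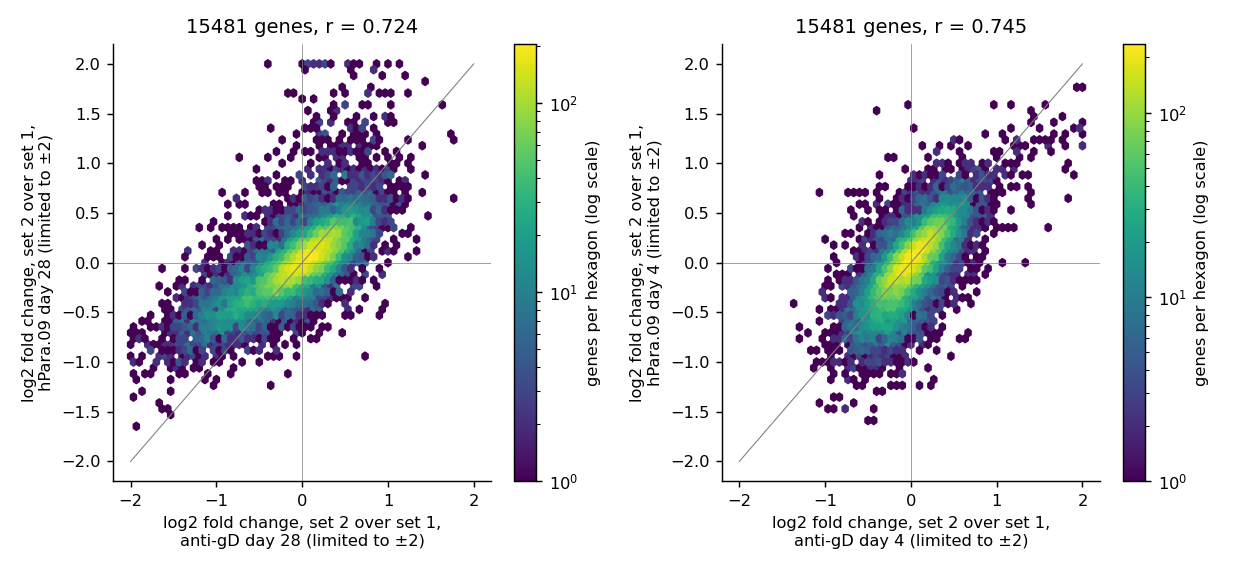
Each hexagon counts genes by the log2 fold change of set 2 over set 1 in an hPara.09 group (vertical) and in the anti-gD group of the same day (horizontal), for day 28 (left) and day 4 (right), with fold changes limited to 2 either way. The genes lie along the diagonal. The r shown was taken over the mean pair log2 ratios of the groups, not the fitted changes plotted, and was 0.724 at day 28 and 0.745 at day 4.

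Whether the difference depended on day or agent was tested directly. For a set difference not equal in the 4 groups, edgeR called 0 of 15481 genes (0%; smallest adjusted p = 0.418, 1070 genes at an unadjusted p under 0.05), limma voom called 0 and DESeq2 called 3. For a difference by day, edgeR called 0 (0%; smallest adjusted p = 0.687, 1092 genes at an unadjusted p under 0.05), and for a difference by agent it called 0 (0%; smallest adjusted p = 0.746, 1019 genes at an unadjusted p under 0.05). DESeq2 and limma voom called 0 for both. For the day 28 minus day 4 difference, 77.0% of genes had a 95% interval inside 1.5-fold in both directions and 94.6% had one inside 2-fold. For the hPara.09 minus anti-gD difference the shares were 77.9% inside 1.5-fold and 95.4% inside 2-fold. Most called set differences were themselves smaller, with a median of 0.29 on the log2 scale and 1098 of 9263 past 1.5-fold. A set difference of that size could differ between groups and stay inside these margins. In simulated counts changed in 1 group, the test between the 4 groups recovered 2% of 1.2-fold, 26% of 1.5-fold and 82% of 2-fold changes. The 0 calls thus do not show that the groups were equal.

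One low-level gene stood out in the alternatives to that test and was chosen after its values were seen. ENSMFAG00000010715, with a width of 2014 bases and a mean of 2.78 CPM, was lower in set 2 in all 6 hPara.09 day 28 pairs (median 2.46 CPM in set 2 and 3.45 CPM in set 1) and in all 6 anti-gD day 28 pairs (median 1.71 CPM in set 2 and 3.66 CPM in set 1). It was higher in set 2 in 1 of 6 hPara.09 day 4 pairs (median 2.52 CPM in set 2 and 3.40 CPM in set 1) and in 5 of 6 anti-gD day 4 pairs (median 2.95 CPM in set 2 and 1.97 CPM in set 1). The fitted log2 fold changes were -0.54, -1.08, -0.38 and 0.51 in the order of these groups. The edgeR adjusted p of a difference between groups was 0.418, against 0.00335 with DESeq2, 0.00974 without animal 5 and 0.0101 without animals 5 and 16, and it reached 0.83 without animal 1. Animal 5 was the anti-gD day 4 animal with the ratio below 0, at -0.71 on the log2 scale.

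The pairs themselves differed in how far apart they lay. The distance of a pair was taken as the standard deviation over the 15481 genes of the log2 CPM ratio. It had a median of 0.482 and ran from 0.319 in animal 8 (hPara.09 day 4) and 0.323 in animal 1 (anti-gD day 4) to 0.791 in animal 5 (anti-gD day 4) and 0.817 in animal 16 (anti-gD day 28). In animal 16, 37.5% of genes differed by more than 1.5-fold between the punches, and in animal 1 6.65% did. Over genes with at least 10 CPM, counting error made up 1.97% (animal 16) to 19.8% (animal 8) of the variance of the pair ratio. Its share over all 15481 genes, low-count ones included, was not computed. A pair was closer than the median distance of its libraries to those of other animals of the same set and group in 19 of 24 animals.

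How closely a pair followed the pattern of the others also varied. Animals 1 and 3, both anti-gD day 4, followed the shared pattern least, with an r over genes of 0.0499 and 0.132 with the mean of the other 23 pairs. Animal 14 (anti-gD day 28) followed it most, with r = 0.809. Animals 5 and 16, the widest pairs, had r = 0.706 and r = 0.631 with slopes of 1.87 and 1.72, so the shared pattern was larger in them than in the mean of the others. The first axis of the pair ratios held 43.2% of their variance, and 23 of 24 animals had a loading above 0, while animal 1 had a loading of -0.00311.

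**Figure D3:**
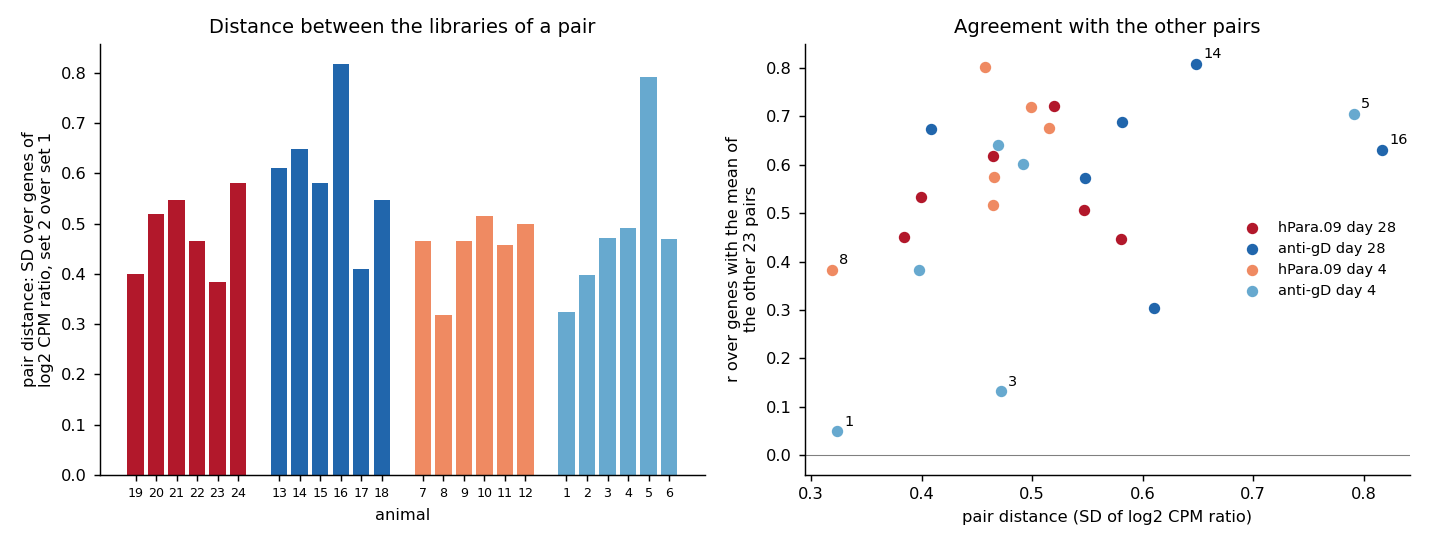
Left, the distance of each pair (SD over 15481 genes of the log2 CPM ratio of set 2 over set 1), 1 bar per animal coloured by group, and right, the same distance against the r over genes with the mean of the other 23 pairs. Animals 5 and 16 are the widest pairs at 0.791 and 0.817, and animals 1 and 3 follow the other pairs least.

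The distance averaged 0.482 ± 0.0801 in the hPara.09 day 28 group, 0.602 ± 0.133 in the anti-gD day 28 group, 0.453 ± 0.0696 in the hPara.09 day 4 group and 0.491 ± 0.160 in the anti-gD day 4 group (SD, n = 6 each). No comparison between groups passed. The smallest exact two-sided permutation p was 0.0736, for hPara.09 day 28 minus anti-gD day 28 (difference -0.120, adjusted p = 0.740 over 12 tests of distance, width and level relations). That comparison changed with 1 animal and with the measure: without animal 17 the difference was -0.158 (exact permutation p = 0.00866, unadjusted), and by interquartile range it was -0.177 (exact permutation p = 0.0130, unadjusted). Without animal 5 the anti-gD day 28 minus anti-gD day 4 difference was 0.171 (exact permutation p = 0.0281, unadjusted), against 0.111 with it (p = 0.223). Pairs with a smaller library were wider over all animals (r = -0.474 between the smaller total and the distance, permutation p = 0.0194, adjusted p = 0.0389; Spearman's rho = -0.298, p = 0.158, adjusted p = 0.237). Without animals 5 and 19 the r was -0.292 (permutation p = 0.189) and without animals 5 and 16 it was -0.120 (permutation p = 0.594), so the relation over all animals did not hold without them. Within the groups of 6 its direction varied: r was -0.471 in hPara.09 day 28 (exact permutation p = 0.328), -0.960 in anti-gD day 28 (exact p = 0.0153), 0.518 in hPara.09 day 4 (exact p = 0.339) and -0.785 in anti-gD day 4 (exact p = 0.0667). The other relations of distance did not pass: its r was -0.0313 with the size of the exonic share difference (rho = 0.0435, adjusted p = 0.885 and 0.840) and 0.438 with the size of the difference in the share of the 13 most abundant genes (rho = 0.216, adjusted p = 0.0659 and 0.371).

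Gene width marked the direction of the difference. Genes were split by width into 10 equal classes, with TMM factors for the calls and the pair ratios. In the longest class, 6530 bases and over, 11.2% were called higher in set 2 and 43.2% lower, and the median pair ratio of these genes was below 0 in 21 of 24 animals. In classes 2 to 4 from the short end, 862 to 2286 bases, 40.8% to 42.1% were called higher and 23.1% to 29.7% lower, and the class medians were above 0 in 20, 23 and 23 of 24 animals. The shortest class, up to 862 bases, was divided in its calls, with 32.2% higher and 30.5% lower, though its median was above 0 in 18 of 24 animals. Genes thus tended towards set 2 when short and towards set 1 when long, less clearly so in the shortest class.

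Within an animal, Spearman's rho over genes between the pair ratio and the width averaged -0.0918 ± 0.0983 (SD, n = 24) and was below 0 in 19 of 24 animals (adjusted p = 0.00042, two-sided sign-flip permutation test, 2 relations). It ran from -0.281 in animal 10 to 0.126 in animal 2. Over the 9558 genes with at least 10 CPM it averaged -0.254 ± 0.140 and was below 0 in 23 of 24 animals, all but animal 2. The group means were -0.130 in hPara.09 day 28, -0.0754 in anti-gD day 28, -0.0925 in hPara.09 day 4 and -0.0687 in anti-gD day 4, and no difference between them passed (adjusted p = 0.740 to 0.913, exact permutation tests). Pearson's r with log2 width averaged -0.0337 (p = 0.0598), which did not pass.

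Expression level was also related to the pair ratio. Spearman's rho between the pair ratio and the mean level averaged 0.0592 ± 0.0742 (SD, n = 24) and was above 0 in 20 of 24 animals (adjusted p = 0.00078, sign-flip permutation test). Over genes with at least 10 CPM alone the mean was -0.00462 (permutation p = 0.728). Of 10 equal classes of level, class 2 from the low end had 22.0% of genes called higher in set 2 and 32.4% lower, and in class 7 38.6% were higher and 25.5% lower. These shares are with TMM factors, and the split within a class could move with the scaling. The median log2 fold change was 0.04 in class 7. Over all genes it was 0.0122 with TMM and -0.0246 with upper-quartile factors. Both the fitted size of the set difference and its spread between animals were smaller at high level. The median absolute log2 fold change, counting noise included, was 0.29 in the lowest class and 0.13 in the highest. The part of noise in these sizes was not separated. The standard deviation of the pair ratio across animals, counting noise included, had a median over genes of 0.758 in the lowest class and 0.314 in the highest, on the log2 scale.

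The relation to width differed with level, as seen when short, middle and long genes (3 equal classes) were crossed with low, middle and high level, a split added after seeing the data. Short genes of high level were higher in set 2: of 965 genes with a median width of 1431 bases and a median of 73.4 CPM, 67.4% were called higher and 11.3% lower, and their median pair ratio was above 0 in all 24 animals, from 0.03 to 0.47 on the log2 scale. Long genes of high level went the other way: of 2512 genes with a median width of 5764 bases and a median of 82.6 CPM, 17.1% were called higher and 39.8% lower, with a median ratio below 0 in 20 of 24 animals. Short genes of low level were also lower in set 2: of 2606 genes with a median width of 1052.5 bases and a median of 1.97 CPM, 20.8% were called higher and 36.8% lower, with a median ratio below 0 in 21 of 24 animals. Long genes of low level were evenly divided, with 20.1% of 993 genes higher and 22.1% lower.

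Differences between these classes do not depend on how the libraries were scaled. At high level the median ratio of short genes minus that of long genes was above 0 in all 24 animals, from 0.04 in animal 8 to 0.60 in animal 10. Among short genes, the median at high level minus that at low level was above 0 in all 24 animals, from 0.04 in animal 3 to 0.57 in animal 10. At low level the contrast was less regular: the median of long genes minus that of short genes was above 0 in 16 of 24 animals. With TMM, upper-quartile and RLE factors alike the short genes of high level were above 0 in 24 of 24 animals and the short genes of low level in 3 of 24. The class of middle width and middle level depended on the scaling, with medians above 0 in 23 animals with TMM and 9 with upper-quartile factors. At the ends of the width range the same interplay showed: of 156 genes of high level in the shortest of the 10 width classes 78.8% were called higher and 7.05% lower, and of 1053 of low level in the same width class 18.9% were higher and 34.5% lower.

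**Figure D4:**
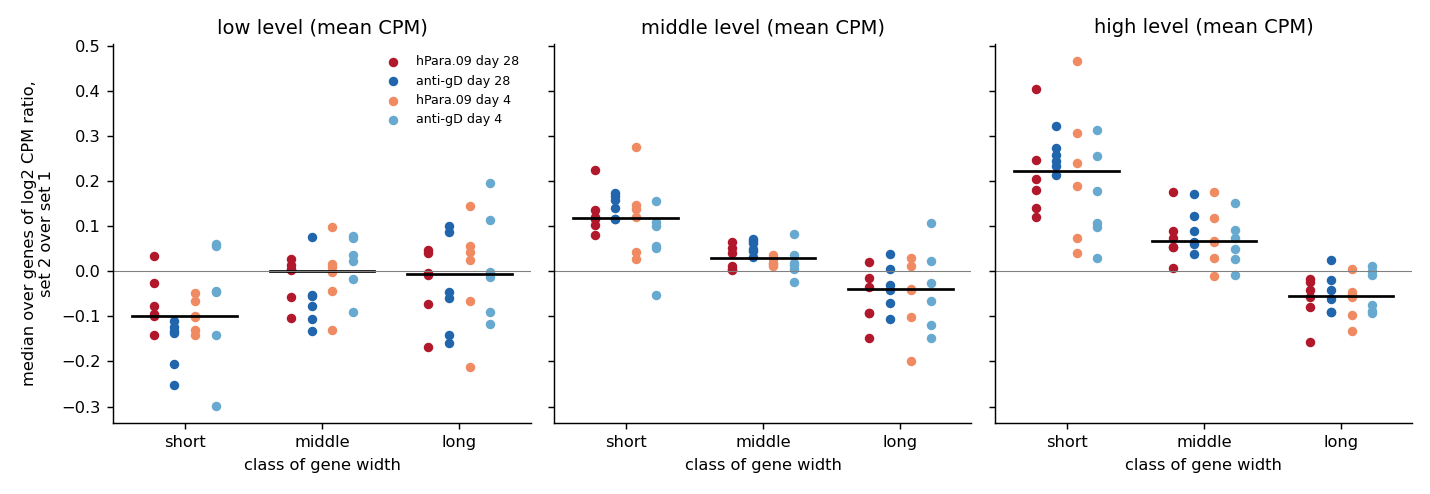
Median over genes of the log2 CPM ratio of set 2 over set 1 in each animal (1 point per animal, n = 24, coloured by group; black lines are medians over animals) by class of gene width, at low, middle and high mean CPM. At high level all 24 points of the short genes lie above 0 and 20 of 24 points of the long genes lie below it, and at low level 21 of 24 points of the short genes lie below 0.

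The strength of the width relation varied with a library measure. Across 24 animals the width rho was lower where the exonic share was higher in set 2 than in set 1 (Pearson's r = -0.678, permutation p = 0.00028, adjusted p = 0.00168 over 6 relations; Spearman's rho = -0.643, permutation p = 0.0009, adjusted p = 0.00438). Without animals 10 and 2, the ones farthest from the median difference in exonic share, r was -0.539 (permutation p = 0.0102). Within the groups of 6, r was -0.950 in hPara.09 day 28 (exact permutation p = 0.0139), -0.439 in anti-gD day 28 (exact p = 0.388), -0.933 in hPara.09 day 4 (exact p = 0.00833) and -0.442 in anti-gD day 4 (exact p = 0.369). All 4 values were below 0, and those of both hPara.09 groups were past an unadjusted threshold.

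**Figure D5:**
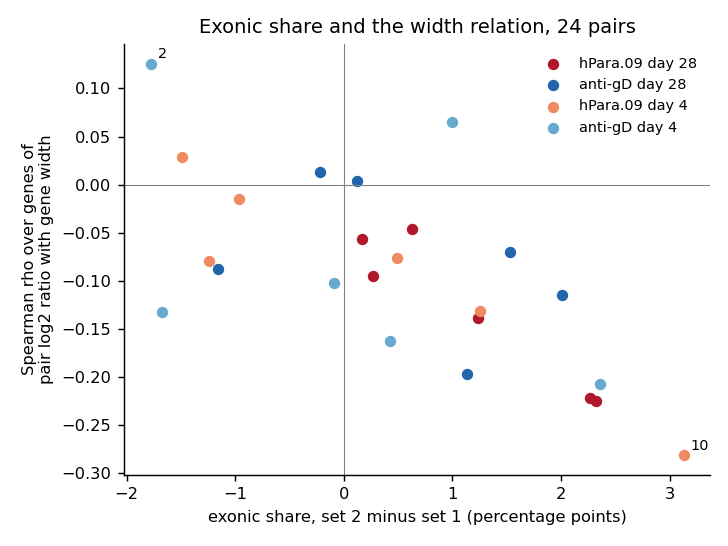
Spearman's rho over genes of the pair log2 ratio with gene width (vertical) against the exonic share in set 2 minus that in set 1, in percentage points (horizontal), 1 point per animal (n = 24) coloured by group. The points slope downwards (r = -0.678), with animal 10 at the lower right and animal 2 at the upper left.

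The width rho was also higher where the 13 most abundant genes held a larger share of the counts in set 2 (r = 0.624, permutation p = 0.00096, adjusted p = 0.00288; rho = 0.622, permutation p = 0.00146, adjusted p = 0.00438). Without animals 5 and 18 this r was 0.525 (permutation p = 0.0116), and within the groups it ran from 0.159 in hPara.09 day 4 to 0.778 in anti-gD day 4. The relation to the log2 ratio of the totals did not pass (r = -0.364, adjusted p = 0.0945; rho = -0.330, adjusted p = 0.227). With the exonic share as a covariate beside the animal block, 8618 genes were called over all animals, 8388 of them shared with the 9263, while the hPara.09 day 28 group, where the share was higher in set 2 in all 6 animals, had 905 calls. With each pair thinned to equal totals 9126 genes were called, 9035 of them shared.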

How the data were processed

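RNA from 48 frontal cortex punches of 24 animals was sequenced. Each deposited file lists, per the file headers, 28623 Ensembl gene IDs with a whole-number count of exonic reads, an RPKM value and a width in bases. GSNAP is named in the submitters' processing notes; its version, the genome build, the annotation, strand handling and the treatment of near-identical gene copies are given in none of the sources used here, so overlapping or copied genes are uncertain. The deposited RPKM values served only to recover the read number they were divided by in each library, which gave the exonic share, a name for this ratio only. None of the IDs matched a symbol (0 paired), so the marker lists were not analysed here and the tissue label was not checked against markers.

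Counts were tested with edgeR 4.0.16 (R 4.3.3): TMM factors, the default low-count filter (15481 genes, 99.92% of counts), robust quasi-likelihood fits, an animal term and a set term, or a set term per group, with Benjamini-Hochberg adjustment at 0.05. The common biological coefficient of variation was 15.3%. Pairing comes from the animal label. CPM are scaled to the TMM library total, and pair ratios use log2 CPM with a prior count of 2. Permutation tests used 100000 seeded resamples over 24 animals and exact enumeration over 6, whose smallest two-sided p is 0.03125 for sign flips. Alternatives were other factors, no filter, DESeq2 1.42.0, limma 3.58.1 voom, a width offset, thinning, a covariate, other priors and animals left out. P-values cover the spread between animals of this one dosing study. Named IDs were the largest changes among genes called with at least 10 CPM and 1 direction in all 24 animals. The comparison, the lists and the rules were chosen with earlier results of these data known. The edgeR tests over all animals, in hPara.09 day 28 and between the 4 groups were first tried on simulated counts with known changes. They recovered 90%, 52% and 26% of 1.5-fold changes, in that order. The width relation was also tried on simulated counts, and the alternatives were not.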

Additional observations from a re-analysis of the deposited data

Results flagged for a closer look

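Of 48 sets of 6 pairs examined (12 measures in 4 groups), 6 held a pair far from the other 5, and chance gives about 1 in 20. Among hPara.09 day 4 animals, animal 8 had a pair distance of 0.319, against 0.457 to 0.515 in the others, and animal 11 had a log2 ratio of totals of 0.39, against -0.49 to -0.16. In animal 12 of that group the pair log2 ratio of ENSMFAG00000009769 was 1.30, against 0.62 to 0.82. Among anti-gD day 4 animals, animal 5 had a pair distance of 0.791, against 0.323 to 0.492, and a difference in detected genes, set 2 minus set 1, of -1355, against -300 to 87. Its set 2 library was also the smallest of the 48, with 12137146 counts, and the part of this depth in its distance was not tested beyond the equal-total counts. Among hPara.09 day 28 animals, animal 20 had 6.71 percentage points more of its counts in the 13 most abundant genes in set 2 than in set 1, against -4.93 to -1.76 points.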

How the results depend on the processing

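The count of 9263 genes stayed between 8618 and 9351 under other factors, no filter, DESeq2, limma voom, the width offset, thinning, the exonic share covariate and without animals 5 and 16, and between 8846 and 9328 with 1 animal left out; a fit with no replicate block called 6817 genes, 6812 of them shared with the paired fit, and the test against 1.2-fold called 2435. Unequal groups gave 3 genes with DESeq2, 3 without animals 5 and 16, and 0 to 1 with 1 animal left out; the difference by day gave 0 to 1, the 1 without animal 5. The hPara.09 day 28 count was 905 with the exonic share covariate, 3686 without animals 5 and 16, and 1131 to 3092 with 1 animal left out. With 1 animal left out the hPara.09 day 4 count was 1609 to 3924 and the anti-gD day 4 count 1543 to 3005. The width relation averaged -0.0337 as Pearson's r. Over genes with at least 10 CPM the level relation was not seen, with a mean of -0.00462 (sign-flip permutation p = 0.728). The hPara.09 day 28 minus anti-gD day 28 pair distance was -0.177 by interquartile range and -0.158 to -0.0768 with 1 animal left out, and the anti-gD day 28 minus day 4 distance was 0.0684 to 0.171. The exonic share difference was 0.372 to 0.586 points, passing unadjusted without animal 2 only (permutation p = 0.0476). The cause of these changes was not tested. Thin counts limit the low-level genes most.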

Other observations

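Genes with 1 direction in all 24 animals were unevenly spread over width. In the class second from the short end of 10 width classes 6.91% of genes had a pair ratio above 0 in all 24 animals and 0.452% had one below 0, and in the longest class 0.323% were above and 1.61% below. Of 10 level classes, class 9 held 6.27% above and 0.840% below, and the lowest class 0% above and 0.0646% below, where the spread of the ratios was widest.

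The largest changes inside single groups, taken by fold change among called genes with at least 10 CPM, were often shared in direction by the other groups. ENSMFAG00000017340 had a log2 fold change of 2.17 in hPara.09 day 28 (edgeR adjusted p = 0.0347), with 0.88, 1.48 and 1.41 in anti-gD day 28, hPara.09 day 4 and anti-gD day 4, and was higher in set 2 in 21 of 24 animals. ENSMFAG00000021011 had -1.90 in anti-gD day 28 (edgeR adjusted p = 3.19e-05), with -0.73, -1.05 and -0.70 in hPara.09 day 28, hPara.09 day 4 and anti-gD day 4, and was higher in 2 of 24 animals. ENSMFAG00000041678 had 2.61 in anti-gD day 4 (edgeR adjusted p = 0.0329) with a standard error of 0.818. It had 2.32, 0.24 and 1.78 in hPara.09 day 28, anti-gD day 28 and hPara.09 day 4, and was higher in set 2 in 20 of 24 animals. ENSMFAG00000014661, with a width of 201 bases, had -1.11 in anti-gD day 4 (edgeR adjusted p = 0.00129), and -0.79, -1.21 and -1.05 in hPara.09 day 28, anti-gD day 28 and hPara.09 day 4. None of the 4 differed between groups past the threshold (edgeR adjusted p from 0.676 to 0.862).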
